A study of Mus musculus with 2 samples.

Results

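Committed preadipocytes of adolescent mice with low levels of progenitor genes were picked out of a single-cell RNA sequencing experiment on the stromal vascular fraction of inguinal subcutaneous white fat. They were the cells of the 2-week library that passed a gate on measured values. In these cells the collagen and decorin genes Col1a1, Col1a2, Col3a1 and Dcn together took 1% or more of the unique molecular identifiers (UMIs, 1 per captured RNA molecule). Ptprc, the pan-leukocyte antigen CD45, had at most 1 UMI, and the progenitor genes Pi16, Dpp4, Anxa3, Sema3c, Wnt2 and Cd55 together took less than 0.1% of the UMIs. The gate held 531 of the 3915 adolescent cells (13.6%, 95% exact binomial interval 12.5 to 14.7) and of the 9344 cells of the experiment. The same gate held 857 of the 5429 cells of the 8-week library (15.8%, 14.8 to 16.8), and these adult committed cells served as the comparison.

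Both libraries came from male wild type C57BL/6J mice without treatment, aged 2 weeks (adolescent) or 8 weeks (adult). Fat pads of several animals were pooled, digested with collagenase, and live cells that excluded the dye 7-AAD were sorted into droplets for 3′ tag counting. There was 1 library per age, so no difference between the ages could be tested, and age and library cannot be told apart. Intervals given with the values are 95% intervals for counting error alone, exact Poisson for levels, conditional binomial for ratios of levels and binomial for shares, all exact, and they say nothing about the spread between mice. Levels are UMIs summed over the cells and scaled to 1000000 UMIs per sum (CPM). Of 22 cell barcodes present in both libraries, 4 belonged to adolescent and 5 to adult committed cells, and 1 was a committed cell in both. Cells with shared barcodes were kept, and the values without them are among the alternatives.

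White fat cells arise from stromal precursors in steps. Multipotent interstitial progenitors that carry Dpp4 and Pi16 give rise to committed preadipocytes, which carry Icam1 and Pparg and begin to make lipid-handling proteins such as Fabp4 before they fill with triglyceride. Pparg is the nuclear receptor that drives adipogenesis, Fabp4 an intracellular fatty acid carrier, Icam1 an adhesion molecule, and Dlk1 (Pref-1) an imprinted Notch-like protein that holds preadipocytes back from differentiation. Another stromal type, marked by F3, Clec11a and Fmo2, has been described as restraining adipogenesis in its neighbours.

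The committed cells were well covered. Their median depth was 9293 UMIs per cell with a median of 2635 genes detected, close to the 9127 UMIs and 2724 genes of the adult committed cells, and their sum held 4818432 UMIs against 7638395 in the adult. The gate genes took a median of 7.42% of the UMIs in the adolescent cells and 4.52% in the adult. No progenitor UMI was counted in 73 of the 531 cells. The edge of the gate ran through a populated range: 99 cells lay inside it at 0.05% or more progenitor UMIs, and 100 stromal cells lay outside it at 0.2% or less. The highest share inside was 0.09997% and the lowest outside 0.1002%. At the collagen edge the lowest cell inside stood at 1.03% and the highest outside at 0.906%, and 16 cells were kept out by Ptprc alone. Scrublet called 8 of the 531 cells doublets (1.51%).

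The 4 markers given with the label were read beside lymphocytes of the same library. Expression of the 4 markers was compared after thinning each cell to 2000 UMIs, which left 525 adolescent and 841 adult committed cells. At this equal depth, Fabp4 was found in 50.7% of adolescent committed cells (46.3 to 55.0), against 6.55% of B cells and 3.97% of T cells of the same library, which should lack it and mark the level of free RNA. Dlk1 was found in 53.3% (49.0 to 57.7), against 4.68% of B cells and 1.90% of T cells. Icam1 reached 41.7%, with 18.0% in B cells and 13.0% in T cells, which use this molecule themselves. Pparg, a sparse transcript, was found in 8.38% (6.16 to 11.1) against 0.802% and 1.38%. Without thinning the shares were 64.6% for Fabp4, 71.0% for Dlk1, 69.3% for Icam1 and 28.2% for Pparg. All 4 markers thus stood above the lymphocyte level. Any stromal cell could stand above it, so these values do not tell committed preadipocytes from other stroma. At 2000 UMIs, 259 of the 525 cells had no Fabp4 UMI. In those cells the genes of the F3-marked stroma summed to 1456 CPM, against 320 CPM in the cells with Fabp4. The genes lie at chr3:10204088-10208576 (Fabp4, minus strand), chr12:109452823-109463336 (Dlk1, plus), chr9:21015985-21028817 (Icam1, plus) and chr6:115360951-115490399 (Pparg, plus) in GRCm38.

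Genes of other cell types were counted in the summed committed cells. The 12 endothelial genes came to 42.5 CPM in all, led by Tek at 29.3 CPM, with Tie1 at 0. The 9 mural genes came to 69.9 CPM, led by Abcc9 at 27.2 CPM, with Higd1b at 0. The 7 Schwann genes came to 102 CPM, of which S100b made 60.0 CPM, beside 92.0 CPM in the non-stromal cells, and the muscle regulators Pax7, Myod1 and Myf5 were at 0. The 9 genes of mature adipocytes, which float off during preparation, summed to 188 CPM, against 5.63 CPM on the progenitor side and 99 CPM in the non-stromal cells. Car3 made 142 CPM of this, while Lep was at 0, Adipoq at 10.6 CPM and Plin1 at 6.85 CPM. The 15 leukocyte genes summed to 794 CPM in committed cells and 25921 CPM in the non-stromal cells of the library. At least 2 leukocyte genes had a UMI in 479 of the 531 cells, and Cd74, the invariant chain of MHC class II, was the most abundant at 179 CPM. In adult committed cells the same list summed to 2098 CPM, with Cd74 at 826 CPM.

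Matrix transcripts filled much of the RNA. Apart from ribosomal protein and mitochondrial genes and the 4 gate genes, the most abundant transcripts were Malat1 (19834 CPM), Sparc (17690 CPM, a collagen-binding matrix protein), Gsn (10733 CPM, the actin-severing protein gelsolin) and Eef1a1. Next came Apoe, the apolipoprotein of cholesterol transport, at 5230 CPM and in 98.1% of the cells. Adult committed cells stood at 14335 CPM for Sparc, 2282 CPM for Apoe and 36970 CPM for Malat1. Gsn was 5.05-fold (5.0 to 5.09) higher in the adult cells, at 54168 CPM.

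The adolescent stroma on the other side of the progenitor cut, 1073 cells, shows what the gate separated. The gate chose both groups by expression in these same cells, so the following values describe the split and support nothing. Of 2716 genes that reached 50 CPM on either side, 177 were past 2-fold higher on the committed side (6.52%) and 172 past 2-fold lower (6.33%). Genes of other cell types differed across the cut too. Schwann genes summed to 102 CPM on the committed and 37.1 CPM on the progenitor side, with S100b past 2-fold higher. Endothelial genes summed to 42.5 against 168 CPM and mural genes to 69.9 against 137 CPM, with Tek and Kcnj8 past 2-fold lower. These progenitor-side sums were mostly 1 gene each, Tek at 131 CPM and Kcnj8 at 107 CPM. Both genes were lower in the non-stromal cells, at 6.37 and 5.76 CPM. The endothelial genes Kdr and Vwf (each 0.179 CPM) and the mural gene Rgs5 (0.0894 CPM) were near 0 there, so the sums do not show endothelial or mural cells. Fabp4 stood at 1095 CPM against 35.7 CPM, a ratio of 30.7 (27.7 to 34.1). Icam1 stood at 409 CPM against 55.8 CPM, Dlk1 at 1080 CPM against 109 CPM, and Pparg at 47.9 CPM against 3.84 CPM.

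Genes with the steepest ratios towards the committed side came from several families. Ccl19, a chemokine that draws naive T cells and dendritic cells, stood at 56.0 CPM against 0.626 CPM (89.6-fold, 42.9 to 225). The neighbouring gene model Gm2564 stood at 95.1 CPM against 1.88 CPM; more than 1 identifier carries the symbol Ccl19 in the gene table, and both levels are uncertain for that reason. Car3, the carbonic anhydrase of adipocytes and muscle, was at 142 CPM against 2.95 CPM (48.1-fold, 33.9 to 70.4). Col15a1, a collagen of the basement membrane zone, was at 500 CPM against 14.4 CPM (34.7-fold, 29.6 to 41.0). Spon1, Olfm2, Vtn and Sparcl1, also in the first 10, stood at 59.1 to 186 CPM on the committed side and 1.43 to 6.44 CPM on the progenitor side.

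On the progenitor side stood Akr1c18, a hydroxysteroid dehydrogenase that breaks down progesterone, at 1292 CPM against 29.9 CPM (43.2-fold, 36.7 to 51.3). Krtdap stood at 431 CPM against 12.7 CPM, Gap43 at 296 CPM against 13.5 CPM and Akr1c14 at 142 CPM against 8.09 CPM. The ligand genes Bmp7 (126 against 6.02 CPM) and Wnt10b (55.2 against 2.70 CPM) were also there, with Dact2, Limch1, Chst1 and Stmn4. Of 12 progenitor genes that the gate did not use, 11 were past 2-fold lower in committed cells and none higher. Of all genes, 6.33% were lower and 6.52% higher. The exception on the list was Ly6a (2001 against 3222 CPM). The median log2 ratio of the list was -2.46, beside 0.01 over all genes.

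**Figure D1:**
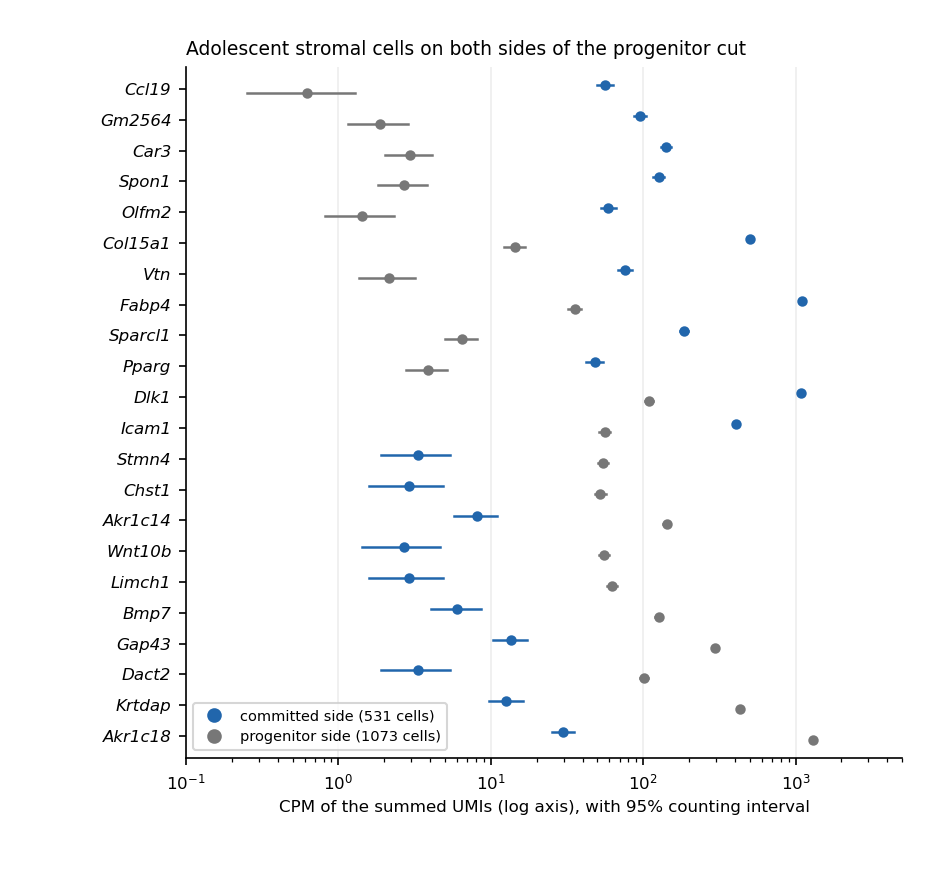
Expression of the 4 markers and of 9 of the 10 highest and the 10 lowest genes by ratio in adolescent stromal cells on the committed side (blue, 531 cells) and the progenitor side (grey, 1073 cells) of the cut. Points are CPM of summed UMIs on a log axis and bars 95% counting intervals; committed levels of the upper 12 genes lie between 47.9 CPM (Pparg) and 1095 CPM (Fabp4), and every progenitor level of those genes lies lower.

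Lipid and complement genes leaned to the committed side. Of 11 lipid-handling genes, 6 were past 2-fold higher there (6.52% of all genes), among them Lpl, the lipoprotein lipase (2113 against 328 CPM), the fatty acid translocase Cd36 (94.2 against 6.79 CPM) and Apoe (5230 against 351 CPM), and 2 were past 2-fold lower (Mgll and Scd2; 6.33% of all genes). Of 14 complement and chemokine genes, 8 were past 2-fold higher and 1, Il6, lower, beside 6.52% and 6.33% of all genes. C4b stood at 276 against 35.8 CPM. Of 9 adipogenic regulators at this level, 1 passed 2-fold, a count near the background of 6.52% of all genes higher. It was Cebpa, the partner of Pparg, at 63.3 against 10.5 CPM. Of the 6 genes of the F3-positive stroma, the 4 that reached 50 CPM (F3, Fmo2, Gdf10 and Mgp) were past 2-fold higher on the committed side, and Clec11a stood at 38.6 against 29.2 CPM.

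The same cut split the adult stroma along many of these genes. Adult committed cells had Fabp4 at 3278 CPM against 219 CPM in the 521 adult progenitor-side cells, Col15a1 at 717 against 46.1 CPM and Akr1c18 at 6.15 against 343 CPM. Dlk1 did not follow: its adult levels were 4.58 CPM and 2.30 CPM, a ratio of 1.99 (0.907 to 4.96) from 35 and 8 UMIs, where the adolescent ratio was 9.88 (9.28 to 10.5).

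The question of age was then put to cells under the same gate: which genes differ between adolescent and adult committed preadipocytes. Of 2742 genes that reached 50 CPM in 1 or both sums, gate genes left out, 87 were past 2-fold higher in adolescent cells (3.17%) and 142 past 2-fold lower (5.18%). The median log2 ratio over all genes was -0.11, and ratios are given without correction for this shift. With the median set to 0 the counts were 108 and 126. Levels at both ages for the genes at either end of the ranking are in the plot of CPM by age.

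**Figure D2:**
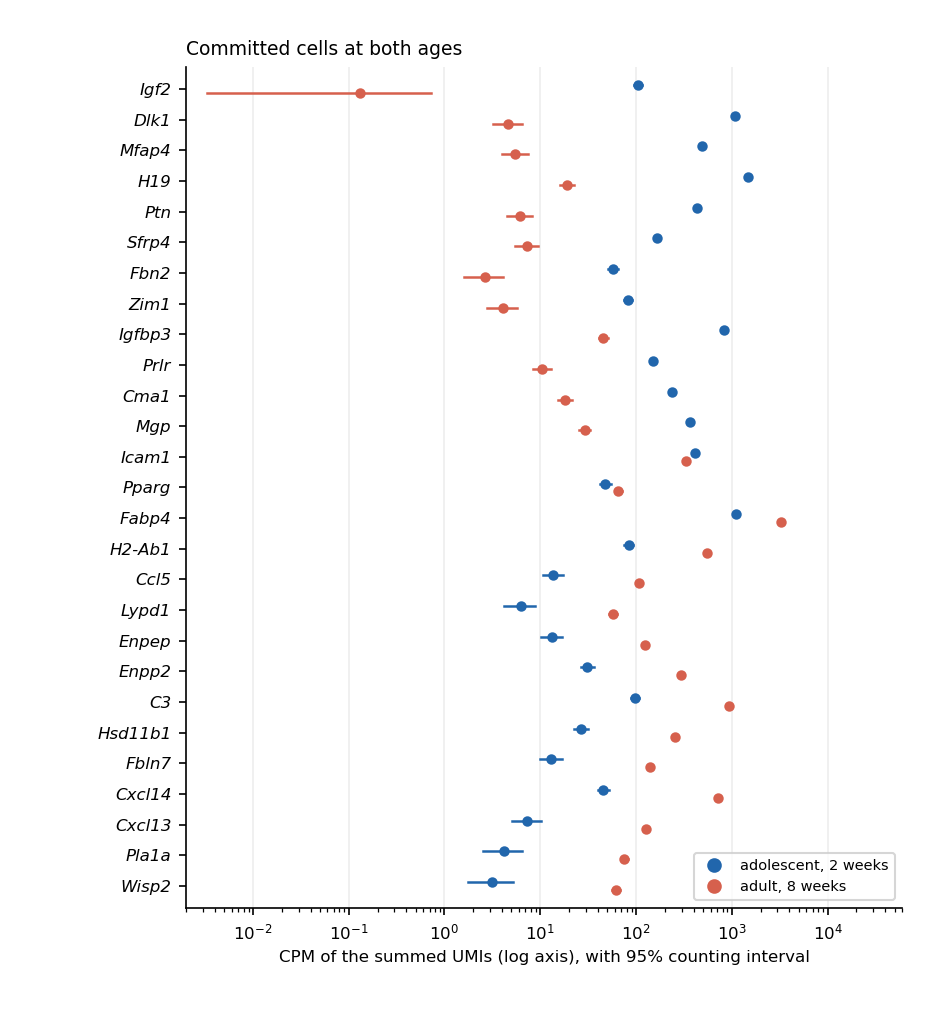
Levels in committed cells of adolescent (blue, 531 cells, 1 library) and adult mice (red, 857 cells, 1 library) for the 12 highest and 12 lowest genes by log2 ratio and the markers, as CPM of summed UMIs on a log axis with 95% counting intervals. Dlk1 stands at 1080 CPM in adolescent and 4.58 CPM in adult cells; Fabp4 stands at 1095 and 3278 CPM, while Icam1 (409 and 336 CPM) and Pparg (47.9 and 65.2 CPM) lie close together.

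Imprinted growth genes stood at the top of the ranking. Igf2, the fetal insulin-like growth factor, had 504 UMIs in the adolescent cells and 1 UMI in the adult cells, or 105 CPM against 0.131 CPM (799-fold, 143 to 31619). Dlk1 had 5203 UMIs against 35, or 1080 CPM against 4.58 CPM (236-fold, 169 to 339). H19, the noncoding RNA made next to Igf2, stood at 1478 CPM against 19.1 CPM (77.3-fold, 65.6 to 91.7). Igf2 (chr7:142650766-142666816) and H19 (chr7:142575529-142578143) lie on the minus strand, and the gene model Gm49394 overlaps Igf2 on that strand, so reads from the overlap cannot be assigned with certainty.

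Of the 13 imprinted genes at 50 CPM or more, 10 were past 2-fold higher in adolescent cells and none lower, where 3.17% of all genes were higher. Their median log2 ratio was 2.06. Meg3, a noncoding RNA of the Dlk1 locus, stood at 3745 CPM against 930 CPM, and the cell cycle inhibitor Cdkn1c at 238 CPM against 19.1 CPM. Peg3, a zinc finger gene, stood at 415 CPM against 44.8 CPM, with Mest (163 against 39.1 CPM), Plagl1 (108 against 19.6 CPM), Grb10 (118 against 50.01 CPM) and Gnas (2397 against 1014 CPM) alongside. Igf2r, Ndn and Sgce were within 2-fold, at log2 ratios of 0.16, 0.43 and -0.30. Zim1, an imprinted zinc finger gene beside Peg3 that was not on the list, stood at 82.4 CPM against 4.06 CPM (20.3-fold, 14.1 to 30.3).

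These genes were spread over the adolescent cells. Dlk1 had a UMI in 377 of the 531 cells, H19 in 414, Ptn in 332 and Igf2 in 215, and the 2 cells with most Dlk1 held 4.52% of its UMIs. At 2000 UMIs, H19 was found in 57.0% and Igf2 in 16.2% of adolescent committed cells. None of the 841 adult committed cells had an Igf2 UMI at that depth, which does not limit the share of cells that express it. Progenitor-side cells of the adolescent library carried H19 in 74.0% and Igf2 in 24.2%, with sums of 2638 and 168 CPM, so neither gene was restricted to the committed side. B cells of the library had H19 in 16.3% and T cells in 14.2%.

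In the adult committed cells, the few Dlk1 molecules sat in few cells, as looked up after their values were seen. All 35 UMIs lay in 5 of the 857 cells, 30 of them in 2 cells with 21 and 9 UMIs. The cell with 21 Dlk1 UMIs also held the single Igf2 UMI of the adult sum. Of these 5 cells, 1 had a barcode shared with the adolescent library, and collagen and decorin took 6.32% to 13.8% of their UMIs, against a median of 4.52%. Of the 146 adult H19 UMIs, 60 lay in 1 cell. Detection of at least 2 of Dlk1, H19 and Ptn, a trio chosen after its values were seen, was seen in 412 of the 531 adolescent cells (77.6%, 73.8 to 81.1) and 1 of the 857 adult cells (0.117%). All 3 were found in 227 adolescent cells, and none of them in 47.

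Growth factors and their binding proteins differed gene by gene. Ptn, the heparin-binding growth factor pleiotrophin, stood at 428 CPM in adolescent and 6.15 CPM in adult cells (69.6-fold, 52.2 to 95.1). All 47 adult Ptn UMIs lay in 8 cells, 29 of them in 2, and without these 2 cells the adult level was 2.36 CPM. Its relative Mdk, midkine, stood at 269 CPM against 93.6 CPM (2.88-fold, 2.62 to 3.16). The binding proteins of insulin-like growth factors went both ways. Igfbp3 was at 831 CPM against 45.4 CPM (18.3-fold, 16.4 to 20.5), whereas Igfbp5 was at 243 CPM against 1106 CPM (4.56-fold higher in adult, 4.29 to 4.85) and Igfbp6 at 694 CPM against 1672 CPM (2.41-fold, 2.32 to 2.50). Of the 10 genes of this axis, 3 were past 2-fold higher and 2 lower, beside 3.17% and 5.18% of all genes. On the progenitor side Igfbp5 stood at 1259 CPM in adolescent and 1680 CPM in adult cells, so its low adolescent level was in the committed cells and not in the stroma at large. Prlr, the prolactin receptor, stood at 149 CPM against 10.5 CPM (14.2-fold, 11.3 to 18.2), and it was found at 2000 UMIs in 25.1% of adolescent committed cells and 1.69% of the progenitor side. Another gene model, Gm21973, overlaps Prlr on the same strand. Angptl4, an inhibitor of lipoprotein lipase, stood lower in adolescent cells, at 215 CPM against 550 CPM.

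Several antagonists and modifiers of Wnt and BMP signalling were higher in the adolescent cells. Sfrp4, a secreted Wnt antagonist, stood at 166 CPM against 7.20 CPM (23.0-fold, 17.5 to 30.8), and Sfrp2 at 314 CPM against 80.0 CPM. On the progenitor side Sfrp4 was at 317 CPM in adolescent and 355 CPM in adult cells, so its adult level was low in committed cells and not in the stroma at large. Chrdl1, a BMP antagonist, stood at 77.2 CPM against 11.3 CPM, and Tgfbi, a matrix protein induced by TGF-beta, at 464 CPM against 96.1 CPM. Wisp2, a secreted protein of the Wnt pathway, had the lowest ratio of all genes, at 3.11 CPM against 61.8 CPM (19.8-fold higher in adult, 11.9 to 35.7). The Wnt list as a whole had 3 of 11 genes past 2-fold higher and 1 lower, with a median log2 ratio of 0.01, and the TGF-beta and BMP list 2 of 10 higher and none lower, beside 3.17% and 5.18% of all genes.

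Among matrix genes, those of elastic fibres and microfibrils leaned to the adolescent side. Of 19, 6 were past 2-fold higher and 1 lower, beside 3.17% and 5.18% of all genes, with a median log2 ratio of 0.41 (all genes -0.11). Mfap4, a microfibril-associated protein, stood at 489 CPM against 5.50 CPM (88.9-fold, 65.6 to 124), and Fbn2, the fibrillin of developing tissue, at 57.7 CPM against 2.62 CPM (22.0-fold, 14.0 to 36.6). Elastin itself, Eln, stood at 752 CPM against 230 CPM (3.27-fold, 3.09 to 3.46) and Mfap2 at 1209 CPM against 340 CPM. Fbln7, a fibulin, went the other way with 13.1 CPM against 141 CPM (10.8-fold higher in adult, 8.35 to 14.1).

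Collagens outside the gate, 12 in all, had 2 past 2-fold higher and 3 lower in adolescent cells, where 3.17% and 5.18% of all genes were. Col14a1, which binds collagen fibrils, stood at 381 CPM against 46.7 CPM (8.16-fold, 7.28 to 9.17). Col4a1, the network collagen of basement membranes, stood at 813 CPM against 1902 CPM (2.34-fold higher in adult, 2.26 to 2.42), and Col18a1 at 33.6 CPM against 110 CPM. Fn1, fibronectin, was at 934 CPM against 232 CPM, the only one of 13 adhesion and basement membrane genes past 2-fold. In the small leucine-rich and matricellular list, 4 of 22 were higher and 6 lower. Periostin (Postn, 2037 against 282 CPM) and Mgp, the matrix Gla protein that inhibits calcification (369 against 29.1 CPM, 12.7-fold, 11.0 to 14.7), were on the adolescent side. The matrix metalloproteinase Mmp3 (219 against 1166 CPM) and Sparcl1 (186 against 718 CPM) were on the adult side.

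Adipogenic regulators lay within 2-fold in all 11 cases, beside 3.17% of all genes past it higher and 5.18% lower, so that this count is near the background. Cebpa stood at 63.3 CPM in adolescent and 58.4 CPM in adult cells (ratio 1.08, 0.934 to 1.26) and Ebf1, an early B cell factor that acts ahead of Pparg, at 786 CPM and 776 CPM (1.01, 0.972 to 1.06). Pparg stood at 47.9 CPM and 65.2 CPM (1.36-fold higher in adult, 1.16 to 1.6). These intervals cover counting error in 1 library per age and do not show that the levels are alike between mice.

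Lipid-handling genes stood mostly higher in the adult cells, with a median log2 ratio of -0.56 (all genes -0.11). Of 9, 3 were past 2-fold lower in adolescent cells (Cd36, Plin2 and Hmgcs1) and 1 higher, beside 5.18% and 3.17% of all genes. Fabp4, counted with the markers and not on this list, stood at 1095 CPM against 3278 CPM (2.99-fold higher in adult, 2.90 to 3.08). The perilipin of small droplets Plin2 stood at 116 CPM against 358 CPM (3.08-fold, 2.81 to 3.38), Cd36 at 94.2 CPM against 251 CPM (2.66-fold, 2.40 to 2.96) and Lpl at 2113 CPM against 3119 CPM (1.48-fold, 1.44 to 1.51). Apoe was the gene higher in adolescent cells, at 5230 CPM against 2282 CPM (2.29-fold, 2.25 to 2.34). At 2000 UMIs, Fabp4 was found in 80.7% of adult committed cells, where adult B cells had it in 29.0% and adult T cells in 25%. The summed level in B cells was 184 CPM in the adolescent and 188 CPM in the adult library, and in T cells 23.9 and 160 CPM; the part of free RNA in the age difference was not tested. Car3 differed little between the sums, 142 and 159 CPM. Of the thermogenic genes, Ucp1, Cidea and Dio2 were at 0 in adolescent committed cells, and Cox8b, a respiratory chain subunit of brown and beige fat and muscle, stood at 46.9 CPM against 125 CPM.

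Complement and chemokine genes were lower in adolescent cells for 6 of 16 and higher for 1, beside 5.18% and 3.17% of all genes. The complement component C3 stood at 98.0 CPM against 937 CPM (9.56-fold higher in adult, 8.71 to 10.5). Cxcl14 stood at 45.5 CPM against 718 CPM (15.8-fold, 13.8 to 18.2) and was found at 2000 UMIs in 5.14% of adolescent and 48.2% of adult committed cells. Cxcl13, which attracts B cells, stood at 7.26 CPM against 128 CPM (17.6-fold, 12.6 to 25.4). Cxcl12, the stromal ligand of Cxcr4, was the member higher in adolescent cells, at 764 CPM against 345 CPM. C3 was higher still on the progenitor side of the adult stroma, at 1935 CPM, against 46.8 CPM on the adolescent progenitor side.

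Several enzymes that act on steroids, angiotensin or phospholipids were lower in adolescent cells. Hsd11b1, which regenerates active glucocorticoid, stood at 26.8 CPM against 258 CPM (9.63-fold higher in adult, 8.05 to 11.6). Enpep, an aminopeptidase that cleaves angiotensin II, stood at 13.3 CPM against 124 CPM (9.31-fold, 7.23 to 12.2). Enpp2, the autotaxin that makes lysophosphatidic acid, stood at 31.1 CPM against 295 CPM (9.49-fold, 8.04 to 11.3), and the phospholipase Pla1a at 4.15 CPM against 75.1 CPM (18.1-fold, 11.6 to 29.9). Of 8 steroid and angiotensin genes, 4 were past 2-fold lower in adolescent cells and none higher, beside 5.18% of all genes lower. Agtr2, the type 2 angiotensin receptor, was below the 50 CPM floor and ran the other way, with 45.7 CPM (220 UMIs) against 0.524 CPM (4 UMIs). Akr1c18 and Akr1c14, also below the floor, were higher in adolescent cells too, at 29.9 against 6.15 CPM and 8.09 against 4.06 CPM. Lypd1 was at 6.23 CPM against 57.7 CPM.

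Genes of leukocytes were also among those at the ends of the ranking, and for them the level in other cells matters. Cma1, the chymase of mast cells, stood at 238 CPM against 18.2 CPM, but 839 of its 1147 adolescent UMIs (73.1%) came from 2 cells. Without the 10 adolescent and 22 adult committed cells that carried 0.5% or more of their UMIs in mast cell or leukocyte genes, a limit chosen after these values were seen, Cma1 stood at 63.7 CPM against 18.2 CPM. H2-Ab1, an MHC class II chain, stood at 83.6 CPM against 554 CPM, and at 81.7 CPM against 486 CPM without those cells. Ccl5 stood at 13.7 CPM against 107 CPM, and at 13.8 CPM against 101 CPM. In the same libraries H2-Ab1 stood at 3421 CPM in adolescent and 7794 CPM in adult B cells, and Ccl5 at 1732 CPM and 3685 CPM in T cells. The part of free leukocyte RNA in these 3 values was not tested.

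Slc7a10, the neutral amino acid transporter Asc-1, was sparse in committed cells: 59 UMIs or 12.2 CPM (9.32 to 15.8) in adolescent, 2 UMIs or 0.262 CPM in adult, and 23.6 CPM on the adolescent progenitor side. At 2000 UMIs it was found in 1.52% of adolescent committed cells and 4.14% of the progenitor side.

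**Figure D3:**
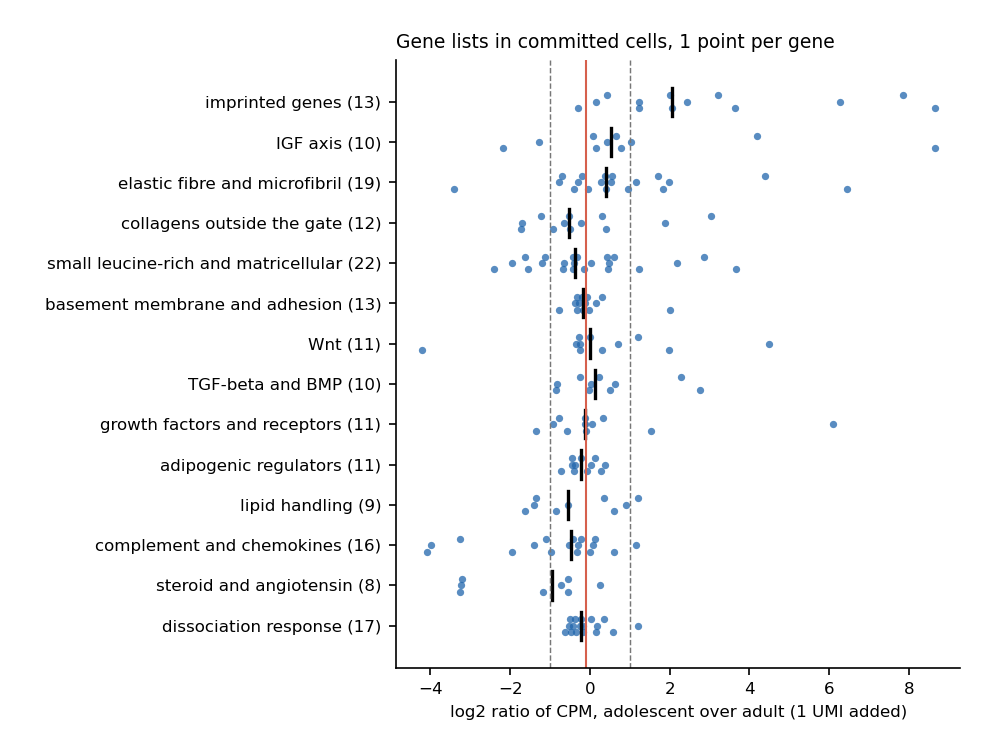
Log2 ratios of CPM, adolescent over adult committed cells, for the members at 50 CPM or more of 14 gene lists, with the number of genes in brackets and 1 point per gene (1 UMI added to each sum). Black ticks mark list medians, the orange line the median of all 2742 genes (-0.11) and dashed lines 2-fold; the imprinted list has the highest median (2.06) and the steroid and angiotensin list the lowest (-0.96).

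Within the adolescent committed cells, Fabp4 was present or absent in nearly equal numbers. At 2000 UMIs, 266 of 525 cells had a Fabp4 UMI (50.7%) and 259 did not. A cell without a UMI at this depth may still express the gene, and both sides are cells of 1 library, so the following is a description of how genes went together in these cells. Their full depths were close, at medians of 9727 and 8896 UMIs. The gate's collagens and decorin took a median of 6.13% of the UMIs with Fabp4 present and 8.69% with Fabp4 absent. Of 2822 genes at 50 CPM or more on either side, 67 were past 2-fold higher with Fabp4 present (2.37%) and 83 past 2-fold lower (2.94%). Genes of other cell types moved with the split too: Schwann genes summed to 71.4 CPM with Fabp4 present and 199 CPM with it absent, and leukocyte genes to 718 and 1031 CPM, with S100a8 and S100a9 past 2-fold lower where Fabp4 was present. On the absent side, 45 of 69 S100a8 UMIs and 32 of 51 S100a9 UMIs lay in 1 cell, and without the 2 top cells on each side S100a8 stood at 32.0 CPM with Fabp4 and 34.8 CPM without, and S100a9 at 33.8 and 34.8 CPM. Their part in the other values was not tested.

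Other genes of lipid uptake and of the adipocyte went with Fabp4. Car3 had 97 UMIs in the cells with Fabp4 and 3 in those without (182 against 5.79 CPM, 31.5-fold, 10.5 to 155), in 29 and 3 cells. Cd36 had 77 UMIs against 19 (3.95-fold, 2.36 to 6.91), in 57 and 12 cells. Lpl stood at 2789 CPM against 1299 CPM (2.15-fold, 1.96 to 2.36) and Apoe at 7378 CPM against 2724 CPM (2.71-fold, 2.55 to 2.88). Pparg had 34 UMIs against 12 (2.76-fold, 1.39 to 5.85) and its partner Cebpa 51 against 29 (1.71-fold, 1.06 to 2.80). Of 8 lipid-handling genes, 4 were past 2-fold higher and 1, Scd2, lower, beside 2.37% and 2.94% of all genes.

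Further genes on the Fabp4 side were sparse. Cox8b had 48 UMIs against 7 (6.68-fold, 3.0 to 17.5) and Arxes2, an adipocyte gene with a near-identical neighbour, 32 against 3 (10.4-fold, 3.25 to 53.0). Cldn15, a tight junction claudin, had 35 UMIs against 5, and Gucy1a1, a subunit of the nitric oxide receptor guanylate cyclase, 33 against 6. Bmper, a modulator of BMP signalling, had 62 against 15 (4.02-fold, 2.26 to 7.62), and Olfm2 43 against 10. The kinase gene Pim3 (43 against 11) and the prostaglandin E receptor Ptger3 (28 against 7) closed the first 10. Igfbp5, lower in adolescent than adult committed cells as a whole, stood at 335 CPM with Fabp4 and 96.5 CPM without (3.47-fold, 2.52 to 4.84).

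Among the genes higher in cells without a Fabp4 UMI were several of the matrix and several Wnt antagonists. None of 12 collagens outside the gate was past 2-fold higher with Fabp4 present and 2 were lower, Col14a1 (263 against 571 CPM) and Col16a1 (47.0 against 102 CPM), beside 2.37% and 2.94% of all genes. Within 2-fold, Col15a1 was found in 63.5% of cells with Fabp4 and 37.5% of cells without, and Col4a1 in 81.2% and 59.1%, at 632 against 380 CPM and 1049 against 612 CPM. Mgp had 447 UMIs on the absent side and 52 on the present side (863 against 97.7 CPM, 8.83-fold higher where absent, 6.61 to 12), in 89 and 18 cells. Cthrc1, a secreted collagen triple helix protein, had 68 UMIs against 9, and Clec11a, an osteogenic growth factor, 45 against 5 (9.24-fold, 3.68 to 29.8). Matn2, a matrilin, had 53 UMIs against 2 (27.2-fold, 7.17 to 231) and Vit, a matrix protein, 53 against 7. Cilp, a cartilage matrix protein that binds TGF-beta, had 39 UMIs in 19 cells without Fabp4 and none with it, which makes it at least 13.4-fold higher where Fabp4 was absent, taking 3 UMIs over the present side as the floor. Thbs4 had 28 UMIs in 11 cells against none (at least 9.59-fold). The 26 UMIs of the Wnt inhibitor Wif1 all came from 1 cell.

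Of 12 genes on the Wnt list, 5 were past 2-fold lower with Fabp4 present, beside 2.94% of all genes, and none higher: the secreted antagonists Sfrp1, Sfrp2 (175 against 440 CPM), Sfrp4 (69.5 against 264 CPM), Dkk2 (28.2 against 116 CPM) and Wif1, the last from 1 cell. In the list of the F3-positive stroma, 4 of 5 were past 2-fold lower with Fabp4 present (Clec11a, Fmo2, Gdf10 and Mgp), and F3 itself stood at 60.2 against 114 CPM. The 6 genes of that list summed to 320 CPM with Fabp4 present and 1456 CPM with it absent. Of 18 elastic fibre genes, 3 were past 2-fold lower with Fabp4 present and none higher (median log2 ratio -0.33): Eln at 477 against 1141 CPM, Mfap4 at 248 against 755 CPM and Ltbp4, which tethers latent TGF-beta, at 109 against 363 CPM. Igfbp6 stood at 352 against 1091 CPM.

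The remaining markers did not track Fabp4 in this way. Icam1 stood at 425 CPM with Fabp4 present and 355 CPM with it absent (1.2-fold, 0.98 to 1.46), with the lower level where Fabp4 was present under another random thinning (log2 ratio -0.15). Dlk1 stood at 878 CPM and 1270 CPM (1.45-fold higher where absent, 1.28 to 1.63), yet was found in 56.4% and 50.2% of the cells. None of 13 imprinted genes was past 2-fold, and H19 stood at 1432 and 1535 CPM. Of the adipogenic regulators, 1 of 10 passed 2-fold, Pparg. With 2.37% of all genes past 2-fold higher and 2.94% lower, few or no calls in lists of this size are near the background.

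**Figure D4:**
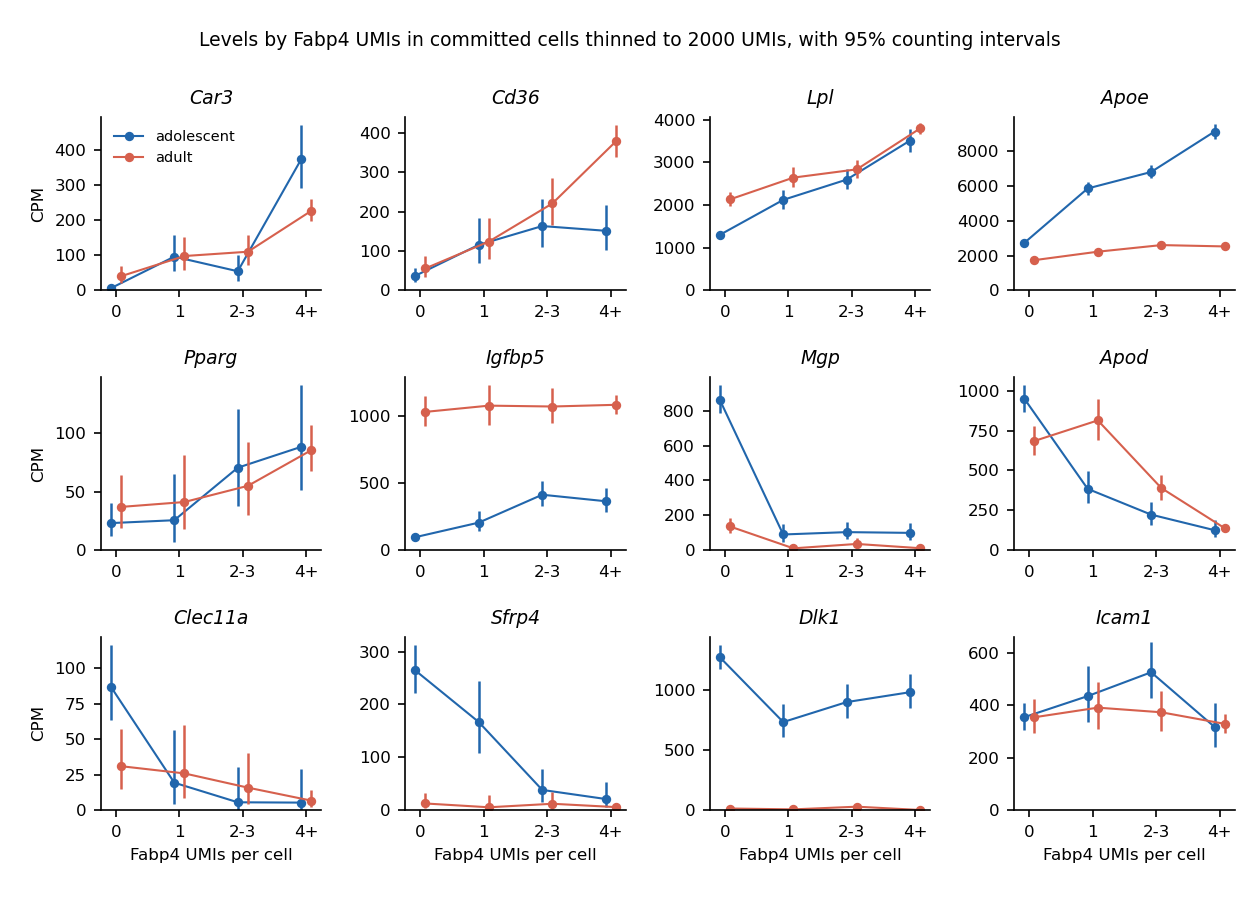
Levels of 12 genes by the number of Fabp4 UMIs per committed cell (0, 1, 2 to 3, 4 or more) after thinning to 2000 UMIs, adolescent in blue and adult in red, as CPM on linear axes with 95% counting intervals. In adolescent cells Lpl runs from 1299 to 3516 CPM across the bins, Mgp drops from 863 to 89.7 CPM between 0 and 1 UMI, and Dlk1 and Icam1 follow no single direction.

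Counting Fabp4 in steps separated graded from stepped patterns. The 525 adolescent cells fell into 259 with no Fabp4 UMI, 78 with 1, 92 with 2 or 3 and 96 with 4 or more. Lpl stood at 1299, 2122, 2598 and 3516 CPM along these bins and Apoe at 2724, 5865, 6815 and 9146 CPM, higher at every step. Pparg stood at 23.2, 25.6, 70.7 and 88.5 CPM. Sfrp4 went down along them, at 264, 167, 38.0 and 20.8 CPM, as did Apod, a lipocalin, at 952, 385, 223 and 125 CPM. Mgp dropped at once, from 863 CPM to 89.7, 103 and 99 CPM, and Clec11a stood at 86.9, 19.2, 5.43 and 5.21 CPM, the last 2 bins holding 1 UMI each. Car3 was mostly in the last bin, at 5.79, 96.2, 54.3 and 375 CPM. Dlk1 (1270, 731, 897 and 979 CPM) and Icam1 (355, 436, 527 and 318 CPM) ran in no single direction.

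Low and high genes seldom met in 1 cell. Of the 10 genes with the lowest ratios, at least 2 were found in 76 of 259 cells without Fabp4 (29.3%) and 6 of 266 with it (2.26%). Of the 10 with the highest ratios, at least 2 were found in 15 (5.79%) and 106 (39.8%). No adolescent committed cell had at least 2 of both. These gene sets were picked by their ratios in the same cells, and the counts describe how the UMIs were spread and add no evidence.

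The adult committed cells, split the same way, had 679 cells with Fabp4 (80.7%, 77.9 to 83.4) and 162 without. The split may not mean the same at both ages, because more adult than adolescent lymphocytes had a Fabp4 UMI at this depth. Fabp4 stood at 160 CPM in adult and 23.9 CPM in adolescent T cells, and at 188 and 184 CPM in B cells. The part of free RNA in the adult cells with Fabp4 was not tested. Of 2840 adult genes, 33 were past 2-fold higher (1.16%) and 67 lower (2.36%) with Fabp4 present. Among 2470 genes at 50 CPM or more in the splits of both ages, 50 were higher in adolescent and 21 in adult cells. Of these, 6 were shared, which is 12% of the former and 28.6% of the latter: Car3, Cd36, Cldn15, Cox8b, Gstt2 and Olfm2. Without the 2-fold limit, 40 of the 50 adolescent genes ran in the same direction in the adult split. Lower genes numbered 41 and 35, and 14 were shared (34.1% and 40.0%), among them Mgp, Matn2, Dkk2, Gdf10 and Col14a1. Of the 41 adolescent genes, 34 ran in the same direction in the adult split. The share of all 2470 genes that ran in the same direction at both ages was not counted. The 40 of 50 and 34 of 41 therefore have no background to be read against. Adult Apod was counted among the 14, but without the 2 top cells on each side it stood at 158 CPM with Fabp4 and 309 CPM without, just within 2-fold. Adult Matn2 had 18 UMIs in cells without Fabp4, 11 of them in 2 cells. Without the 2 top cells on each side it stood at 0.736 CPM with Fabp4 and 21.6 CPM without, under the 50 CPM floor. Adult Mgp stood at 15.5 CPM with Fabp4 and 136 CPM without (8.78-fold higher where absent, 5.11 to 15.5), but 26 of its 44 UMIs on the absent side lay in 2 cells. Without the 2 cells with most Mgp on each side the levels were 11.0 against 55.6 CPM in adult and 58.3 against 728 CPM in adolescent cells. Adult Cd36 stood at 312 against 55.6 CPM (5.62-fold, 3.51 to 9.58).

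Some adolescent differences had no counterpart of that size in the adult split. Igfbp5 stood at 1080 against 1031 CPM in adult cells (1.05-fold, 0.930 to 1.18), where the adolescent ratio was 3.47. Apoe stood at 2496 against 1735 CPM (1.44-fold, 1.32 to 1.58), Bmper at 155 against 117 CPM (1.32-fold, 0.930 to 1.92) and Gucy1a1 at 56.7 against 40.1 CPM. The counting intervals of Igfbp5, Apoe and Bmper at the 2 ages are apart. Bmper and Gucy1a1 were named for being among the 10 highest adolescent ratios, and Igfbp5 and Apoe were past 2-fold there. Genes chosen by a high ratio tend to show a lower one elsewhere, so the gap adds no evidence of an age difference. With 1 library per age the difference in ratios was not tested. Adult cells with at least 2 of the 10 low genes were 9 of 162 without Fabp4 (5.56%) and 11 of 679 with it (1.62%). Of the adult cells with Fabp4, 3 had at least 2 of the low and at least 2 of the high genes.

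**Figure D5:**
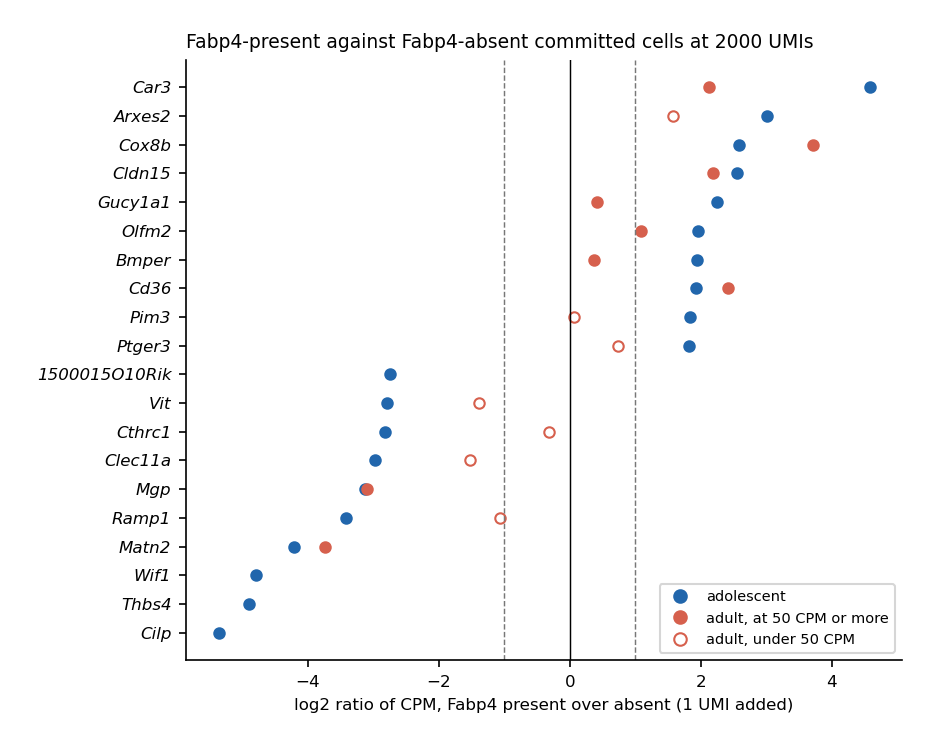
Log2 ratio of CPM, Fabp4 present over absent at 2000 UMIs (1 UMI added to each sum), for the 10 highest and 10 lowest adolescent genes, in adolescent (blue) and adult (red; hollow under 50 CPM on both sides, none drawn where both adult sums held 3 UMIs or fewer) committed cells. Dashed lines mark 2-fold; Cd36 lies at 1.93 in adolescent and 2.42 in adult cells, while Gucy1a1 lies at 2.24 and 0.41.

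Cell-to-cell spread was read from the variance over the mean of the thinned counts, which had a median of 1.05 over 2373 genes. The genes named here were taken from the top of that ranking. Among the first 15, the mast cell genes Cma1 (32.5) and Tpsb2 (25.3) and the neutrophil genes S100a8 (22.6) and S100a9 (14.5) were found in 15.2%, 7.05%, 7.05% and 7.62% of the cells, and the single highest cell held 71, 47, 45 and 32 of their UMIs. Apod stood at 21.3 and was found in 40.2% of the cells, Malat1 at 16.0, and further down came Apoe (13.6), Mgp (10.7), Sparc (9.32), Gsn (7.39), Fabp4 (7.00), H19 (6.91) and Dlk1 (6.61). Apod also led in the adult cells, at 37.8. Dividing cells were rare: at least 3 genes of the G2/M phase were found in 4 of 525 adolescent committed cells (0.762%, 0.208 to 1.94), in 8 of 1063 progenitor-side cells and in 1 of 841 adult committed cells. Immediate early genes of the dissociation response summed to 19420 CPM in adolescent and 23898 CPM in adult committed cells, and to 11867 CPM on the adolescent progenitor side, with 1 of 17 past 2-fold between the ages (Ier3, higher in adolescent cells), beside 3.17% of all genes higher and 5.18% lower.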

How the data were processed

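Droplet 3′ libraries of live-sorted stromal vascular cells from 2-week and 8-week mice, 1 library each, were analysed. The authors aligned reads to the mouse genome and collapsed them to UMI counts per gene and cell with Cell Ranger (GRCm38, per the labels), and deposited filtered matrices of raw counts. The methods name no doublet removal before deposit. Cell barcodes were already chosen by the authors, so cells of low depth may be missing.

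From the deposited counts, cells were gated by shares of UMIs as stated, and UMIs were summed per library and group. The sums held 4818432 UMIs in adolescent and 7638395 in adult committed cells. Log2 ratios of CPM were taken after adding 1 UMI to each sum, among genes that reached 50 CPM in 1 or both sums, and 2-fold was the limit for counts of genes. With 1 library per age and cells that are not replicates, no test was made. Intervals are at 95% and cover counting error. For shares and for the Fabp4 split every cell was thinned at random to 2000 UMIs, leaving out 6 adolescent and 16 adult committed cells of lower depth. B and T cells, with 2 or more UMIs of their receptor genes and outside the gate, gave the level of free RNA. Doublets were called with Scrublet (scanpy 1.11.5, in Python 3.11.15) and kept. The script was tested on simulated data.

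The members, the 35 gene lists and the comparisons were chosen with earlier results of these data known. The text names the markers, the 12 highest and 12 lowest genes between the ages, the 10 at each end of the other comparisons (1 of them is not reported here), the 15 most abundant genes and members of the lists. Gene positions are from the GENCODE annotation of GRCm38, which held 99.7% of the gene identifiers. The alternatives were other gates and thinning depths, a mean over cells, other floors and pseudocounts, centring, and leaving out doublets, cells with genes of other types, cells rich in mast or leukocyte genes, and cells with shared barcodes.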

Additional observations from a re-analysis of the deposited data

How the results depend on the processing

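Alternatives were run for the markers and the genes at either end of each ranking, not for other list members. The ratios of 27 such genes between the ages kept their sign in 432 of 432 values, those of 23 across the progenitor cut in 345 of 345 and those of 23 in the Fabp4 split in 251 of 252, the exception being Icam1, at a log2 ratio of 0.26 and -0.15 under another random thinning. Of these values, 39, 54 and 20 lay outside the counting interval. The counts moved more. With the progenitor limit at 0.05% the gate held 432 adolescent cells (779 adult), at 0.2% it held 631 adolescent cells, and with Ptprc at 0 it held 481 (727 adult). Leaving out every cell with UMIs of 2 or more genes of another cell type left 50 adolescent and 5 adult cells, since leukocyte RNA was nearly everywhere. Without the leukocyte list, an alternative chosen after seeing the data, 446 and 770 were left. For that reason the age and Fabp4 comparisons were not run with leukocyte genes in that filter. Between the ages, 164 genes were higher and 224 lower at a floor of 20 CPM, and 55 and 93 at 100 CPM. Across the progenitor cut the counts were 337 and 297 at 20 CPM and 94 and 108 at 100 CPM, and 308 were higher under the filter that left 50 cells. In the Fabp4 split, 157 were higher and 131 lower at 1000 UMIs per cell, 113 were higher when 2 UMIs were asked of Fabp4, 41 and 54 with all UMIs of the same cells, 27 and 47 with 10 UMIs added, and 17 and 42 at 100 CPM. The cause of these moves was not tested beyond the number of genes that each floor lets in. Leaving out doublets, cells rich in mast or leukocyte genes, or cells with shared barcodes kept every count within 1.5-fold. No paired analysis was possible because each age had 1 library. Depth limits sparse genes most: in the Fabp4 split a gene near the floor of 50 CPM rests on few UMIs a side.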

Other observations

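Car3 was uneven in both ages. In adolescent committed cells its 683 UMIs at full depth lay in 59 of 531 cells, 296 of them in 2 cells, and in adult cells 1211 UMIs lay in 180 of 857. The G2/M cells of the adolescent committed gate, 4 in number, all had a Fabp4 UMI at 2000 UMIs, while none of the 259 cells without Fabp4 had 3 or more G2/M genes, with an exact binomial upper limit of 1.41%.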
